A study of Mus musculus with 6 samples.

Results

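The genes described here are 10 molecular chaperone genes of the HSP90, HSP70 and small heat shock families and their partners, chosen by symbol: Hsp90aa1, Hsp90ab1, Hspa1a, Hspa1b, Hspa8, Hspb1, Hspb8, Cryab, Dnajb1 and Unc45a. All 10 were found among the 18112 genes of the deposited RNA-seq table, each in 1 row, and all 10 passed the filter on low values (0.5 FPKM or more on average), which left 12565 genes to test. RNA was sequenced from primary vascular smooth muscle cells (VSMCs) isolated by collagenase digestion from the medial layer of mouse aortas, 3 samples from Smyd2 fl/fl mice (labelled SMYD2 Flox) and 3 from Smyd2 SMC-/- mice (labelled SMYD2 KO), all of the C57BL/6 strain and 8 to 10 weeks of age. Both groups carried loxP sites around exon 2 of both copies of Smyd2, a gene for a lysine methyltransferase, and the Smyd2 SMC-/- mice carried in addition a Cre recombinase driven by the Tagln (SM22α) promoter, whereas the fl/fl littermates had no Cre. The Tagln promoter is active in smooth muscle and, as a limit of the model, deletion depends on its activity in the cells before and during culture. The labels give cells at passage 6 in medium with 10% serum, while the methods of the study give an earlier passage and overnight starvation, so that the state of the cells at harvest is uncertain. The comparison asks how the RNA of these chaperones differed between cells of these genotypes.

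HSP90 and HSP70 are ATP-driven chaperones that fold and hold client proteins in the cytosol, each with a constitutive form and a form induced by stress, and small heat shock proteins bind unfolded proteins without ATP. Genes of the inducible forms are activated by heat shock factor HSF1, which binds inverted repeats of a short unit in their promoters. HSP90 is a known substrate of SMYD2, and in muscle cells UNC45 proteins work with HSP90 to fold myosin, while the small heat shock proteins HSPB1, HSPB8 and αB-crystallin protect the contractile apparatus and the cytoskeleton.

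Values are in FPKM, the fragments of a gene scaled by the length of its transcript and the depth of the library. Differences are log2 fold changes of Smyd2 SMC-/- against Smyd2 fl/fl on log2(FPKM + 1), tested with limma over all 12565 genes, and a gene was called at an adjusted p under 0.05. The study speaks in general of independent experiments, but the sources do not say whether these 3 replicates came from separate animals or cultures, so that the p-values measure only the spread between these samples. Without the block 152 genes were called lower and 154 higher, and after rescaling to TPM 99 and 247, with a median over all genes of 0.10 in place of -0.02. Fold changes of single genes after TPM are therefore also given relative to that median. Leaving out 1 library moved the 306 calls to between 34 and 686. Exact permutation tests of 3 against 3 samples cannot give a p below 0.1. Triplets of values below are in the order of replicates 1, 2 and 3, and the groups are shortened to fl/fl and SMC-/- cells. Smyd2 itself was at 7.87, 3.10 and 3.0 FPKM in fl/fl cells and at 1.67, 0.40 and 0.80 FPKM in SMC-/- cells. The SMC-/- libraries all lay under the lowest fl/fl library, as the labels give it, and the log2 fold change was -1.48 (limma adjusted p = 0.105, or 0.0189 with the replicate number as a block) and -1.35 (adjusted p = 0.00126) in replicates 2 and 3 alone.

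The replicate 1 libraries of both groups stood apart from replicates 2 and 3. Of the variance of all genes tested, 50.2% lay along a first principal component that set replicate 1 of both groups apart. Another 33.1% lay along a second that separated the genotypes. Each also carried the other division. On the first, replicates 1, 2 and 3 lay at -58.6, 3.11 and 2.74 in fl/fl cells and at -25.4, 39.1 and 39.1 in SMC-/- cells. On the second, replicate 1 was the lowest library of each group, at 8.34 in fl/fl and -48.3 in SMC-/- cells. For 35.8% of all genes tested the highest value of both groups was in replicate 1. This held for 4 of the 10 chaperone genes, Hspa1a, Hspa1b, Cryab and Unc45a. The fold changes of the 10 genes are therefore given also with the replicate number as a block where this changed the call, and for replicates 2 and 3 alone. That subset keeps 2 samples in each group, and 29.0% of all genes were called in it. It was chosen because these same data set replicate 1 apart, and its p-values take no account of that choice.

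The groups also differed along whole chromosomes. The median log2 fold change was 0.28 over the 743 genes tested on chromosome 5, which carries Hspb1 and Hspb8, and -0.15 over the 594 genes on chromosome 17, which carries Hsp90ab1, Hspa1a and Hspa1b, against -0.02 over all genes. On chromosome 5 the median difference within replicates 1, 2 and 3 was 0.36, 0.21 and 0.24, above that of all genes in each. Values with the chromosome medians removed, an alternative chosen after the data were seen, are given beside some of the genes below.

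By level the genes spanned more than 2 orders of magnitude. In fl/fl cells the order by mean FPKM was Hspa8, Hsp90ab1, Cryab, Hsp90aa1, Hspa1b, Hspb1, Hspb8, Dnajb1, Unc45a and Hspa1a, from 1778 ± 136 FPKM (SD, n = 3) for Hspa8 to 10.4 ± 4.33 FPKM (SD, n = 3) for Hspa1a. Hspa8 ranked 11 and Hsp90ab1 ranked 25 among all genes of the table by mean FPKM. In that order the sample ranges of Cryab and Hsp90aa1 overlapped, as did those of Hsp90aa1 and Hspa1b, of Hspa1b and Hspb1, of Dnajb1 and Unc45a, and of Unc45a and Hspa1a. In SMC-/- cells Hspb1 and Hspb8 stood above Hspa1b, although the ranges of Hspb1 and Hspb8 overlapped, as did those of Hspb8 and Hspa1b. In fl/fl replicates 2 and 3 too, Hspa1b (36.5 and 36.3 FPKM) lay below Hspb1 (76.7 and 61.6) and Hspb8 (47.6 and 45.3). Its higher place in the fl/fl order came from replicate 1, at 239 FPKM. The plot of levels by library shows all values.

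**Figure D1:**
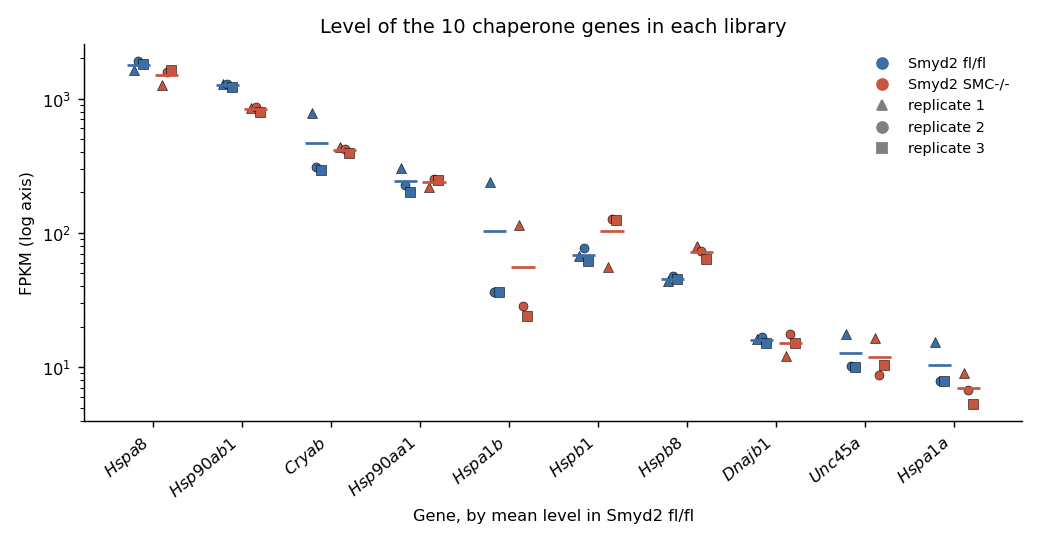
Level of each of the 10 chaperone genes in FPKM (log axis) in each of the 6 libraries, with blue for Smyd2 fl/fl, red for Smyd2 SMC-/-, a symbol for each replicate number and a line at each group mean (n = 3). Hsp90ab1 and Hspa8 lie lower in every Smyd2 SMC-/- library than in any Smyd2 fl/fl library and Hspb8 higher, and replicate 1 of both groups stands far above the rest for Hspa1b.

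None of the 10 genes (0) was called by limma, where 2.44% of all genes tested were called in either direction. At an unadjusted p under 0.05 the number was 2, Hsp90ab1 and Hspb8, where 20.3% of all genes tested fell under that limit. At the cutoffs of the study's methods, more than 2 fold with an adjusted p below 0.01, the number was 0, where 0.422% of all genes passed. With the replicate number as a block 1 gene was called lower, Hsp90ab1, and 1 higher, Hspb8, where 5.72% of all genes were called lower and 4.72% higher. In replicates 2 and 3 alone Hsp90ab1 and Hspa1b were called lower, where 17.2% of all genes were, and Hspb1, Hspb8 and Cryab higher, where 11.9% of all genes were. The Smyd2 SMC-/- libraries lay entirely below the Smyd2 fl/fl libraries for 2 of the 10 genes, Hsp90ab1 and Hspa8, and entirely above for 1, Hspb8, where 15.0% of all genes tested lay below and 13.1% above. Hsp90ab1 and Hspa8 averaged more than 500 FPKM, and of all genes at that level 51.8% lay below.

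**Figure D2:**
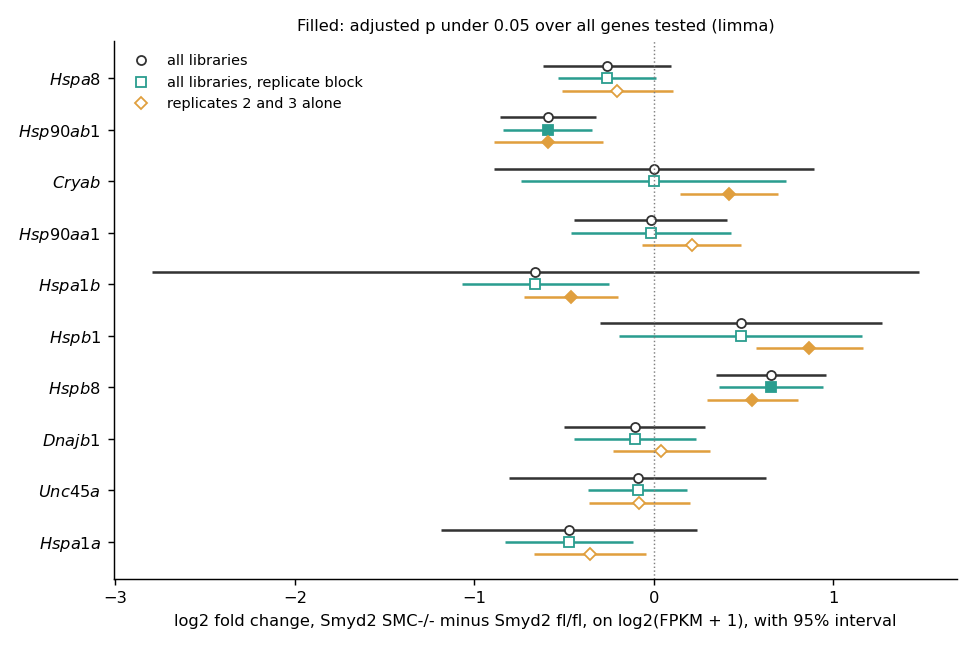
Log2 fold change of each of the 10 genes, Smyd2 SMC-/- minus Smyd2 fl/fl, with its 95% interval from limma, over all 6 libraries, over all with the replicate number as a block, and over replicates 2 and 3 alone. Filled symbols have an adjusted p under 0.05: with the block Hsp90ab1 at -0.59 and Hspb8 at 0.65, and in replicates 2 and 3 alone also Hspa1b, Hspb1 and Cryab.

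Of the HSP90 genes, Hsp90ab1 was lower in every SMC-/- library, and Hsp90aa1 was not. Hsp90ab1 (NCBI Gene 15516) encodes HSP90β, the constitutive cytosolic form. Its level was 1279.8, 1283 and 1225 FPKM in fl/fl cells, and 849, 872 and 796 FPKM in SMC-/- cells. The groups did not overlap, and replicate 1 did not stand apart for this gene in either of them. The mean was 1263 ± 32.7 FPKM in fl/fl cells and 839 ± 39.0 FPKM in SMC-/- cells (SD, n = 3 each), or 66.5% of the fl/fl mean. The log2 fold change was -0.59 (95% interval -0.86 to -0.32, limma adjusted p = 0.0542), with an adjusted p of 0.0322 with the replicate block and 0.0143 in replicates 2 and 3 alone. Within replicates 1, 2 and 3 the log2 difference was -0.59, -0.56 and -0.62. Fewer cells that express a gene and less of its RNA per cell cannot be told apart in these bulk samples.

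The lower level of Hsp90ab1 was shared by abundant genes at large. Of the 110 genes that averaged 500 FPKM or more, the median log2 fold change was -0.39 (-0.26 after TPM and -0.11 after quantile normalization), 51.8% had groups that did not overlap with Smyd2 SMC-/- below, and 23.6% had a lower fold change than Hsp90ab1. Below 10 FPKM the median was 0.03, from 10 to 100 FPKM -0.04 and from 100 to 500 FPKM -0.17. Quantile normalization, which gives all libraries the same distribution, left Hsp90ab1 at a log2 fold change of -0.29 (limma adjusted p = 0.296), or 0.129 with the replicate block. With the chromosome medians removed it was -0.43 (limma adjusted p = 0.179), or 0.0651 with the replicate block.

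Hsp90aa1 (NCBI Gene 15519) encodes HSP90α, the form induced by stress. It was at 305, 228 and 202 FPKM in fl/fl cells, and at 219, 251 and 246 FPKM in SMC-/- cells. The highest and the lowest library were both Smyd2 fl/fl, so that the groups overlapped in full. The log2 fold change was -0.02 (95% interval -0.44 to 0.41, limma adjusted p = 0.970), and 0.21 (95% interval -0.06 to 0.49, adjusted p = 0.219) in replicates 2 and 3 alone. It was 0.11 after rescaling to TPM, a shift shared by all genes (0.01 relative to their median, and 0.00 before), and 0.09 after quantile normalization.

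The ratio of Hsp90aa1 to Hsp90ab1 is free of a scale factor common to a whole library, but not of shifts by level or by chromosome. It was 0.238, 0.178 and 0.165 in fl/fl cells, and 0.258, 0.288 and 0.309 in SMC-/- cells. All Smyd2 SMC-/- libraries lay above all Smyd2 fl/fl libraries. The difference of the log2 ratio was 0.57, from -2.39 ± 0.280 to -1.82 ± 0.133 (SD, n = 3 each; two-sided exact permutation test, p = 0.1, its lower limit). Within replicates 1, 2 and 3 the difference was 0.11, 0.70 and 0.91, so that it was smallest in replicate 1. After quantile normalization the log2 fold changes of Hsp90aa1 and Hsp90ab1 were 0.09 and -0.29, closer together than the -0.02 and -0.59 without it. With the chromosome medians removed they were -0.07 and -0.43, also closer together.

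Hspa8, Hspa1a and Hspa1b of the HSP70 family were lower in SMC-/- cells within each replicate number, and none of them was called over all libraries. Hspa8 (NCBI Gene 15481) encodes HSC70, the constitutive cytosolic HSP70. Its level was 1633, 1904 and 1797 FPKM in fl/fl cells, and 1260.3, 1589 and 1622 FPKM in SMC-/- cells. Replicate 1 was the lowest library of each group, and the groups did not overlap, though Smyd2 fl/fl replicate 1 and Smyd2 SMC-/- replicate 3 lay close together. Of the 110 genes that averaged 500 FPKM or more, 51.8% had SMC-/- libraries entirely below in the same way. For Hspa8 the values of the fit follow. The log2 fold change was -0.26 (95% interval -0.62 to 0.10, limma adjusted p = 0.391), and -0.20 (95% interval -0.51 to 0.11, adjusted p = 0.287) in replicates 2 and 3 alone. Quantile normalization turned it to 0.11, and with the chromosome medians removed it was -0.39 (limma adjusted p = 0.322).

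Hspa1a (NCBI Gene 193740) and Hspa1b (NCBI Gene 15511) encode the stress-inducible HSP70. They lie 9951 bases apart on chromosome 17 in the GENCODE M21 annotation (GRCm38), each with a single exon. Their coding sequences were 99.4% identical and their whole transcripts 85.2%, so that over the coding part the division of fragments between them is uncertain. Hspa1b was at 239, 36.5 and 36.3 FPKM in fl/fl cells, and at 115, 28.6 and 23.9 FPKM in SMC-/- cells. The replicate 1 libraries were higher than the mean of the other replicates by a factor of 6.58 in fl/fl cells and 4.36 in SMC-/- cells, and within each replicate number the Smyd2 SMC-/- library was the lower. Hspa1a was at 15.4, 7.93 and 7.92 FPKM in fl/fl cells and at 9.06, 6.73 and 5.31 FPKM in SMC-/- cells, in the same order. It too was highest in replicate 1 of each group and lower in SMC-/- cells within each number.

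For Hspa1b the log2 fold change was -0.66 (95% interval -2.80 to 1.48, limma adjusted p = 0.744) over all libraries, with an adjusted p of 0.0622 with the replicate block and 0.0264 with a block for replicate 1 against the others, and -0.46 (95% interval -0.72 to -0.20, adjusted p = 0.0206) in replicates 2 and 3 alone. With the chromosome medians removed it was -0.50 over all libraries. Without Smyd2 fl/fl replicate 1 its direction turned, to 0.24. For Hspa1a the values were -0.47 (95% interval -1.19 to 0.24, limma adjusted p = 0.443) and -0.35 (95% interval -0.67 to -0.04, adjusted p = 0.0862), with -0.31 after removal of the chromosome medians and -0.18 without Smyd2 fl/fl replicate 1. With both genes summed, a choice made after the data were seen, the log2 fold change was -0.65 (95% interval -2.63 to 1.33, limma adjusted p = 0.726), with an adjusted p of 0.0641 with the replicate block and 0.0280 with the block for replicate 1, and -0.45 (adjusted p = 0.0243) in replicates 2 and 3 alone. The ratio of this sum to Hspa8 was 0.156, 0.0233 and 0.0246 in fl/fl cells, and 0.0981, 0.0222 and 0.0180 in SMC-/- cells. Here the groups overlapped, and the difference of the log2 ratio was -0.40 (two-sided exact permutation test, p = 0.5). Within replicates 1, 2 and 3 the difference was -0.67, -0.07 and -0.45.

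**Figure D3:**
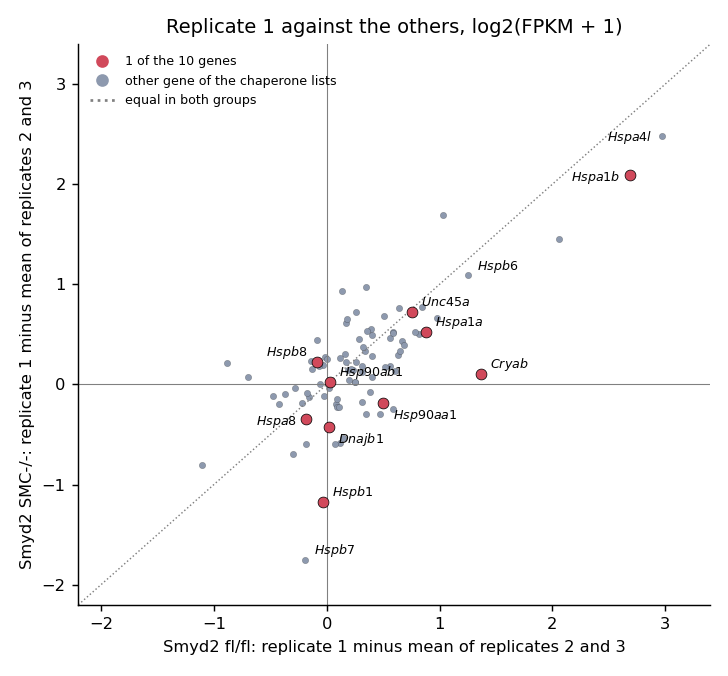
Difference of replicate 1 from the mean of replicates 2 and 3 on log2(FPKM + 1), in fl/fl cells on the horizontal and in SMC-/- cells on the vertical axis, for the 91 genes tested of the chaperone lists, with the 10 genes in red. Hspa1b lies high on both axes with Hspa4l, while Cryab is high only in fl/fl cells and Hspb1 is low only in SMC-/- cells.

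The promoters of the closely similar genes Hspa1a and Hspa1b are shown with that of Hspb1, a small heat shock gene whose promoter holds more than 1 match. RefSeq promoters (250 bases before to 50 after the start site, GRCm38.p6) were given for 6 of the 10 genes, and none was given for Hsp90aa1, Hsp90ab1, Hspa8 and Cryab. They were searched on both strands for pairs of inverted heat shock units, GAANNTTC and TTCNNGAA, for 3 consecutive inverted units and for the CArG box, to which serum response factor binds. GAANNTTC was present in the windows of Hspa1a, Hspa1b, Hspb1 and Hspb8, and in 7.86% of all 32851 promoters. TTCNNGAA (8.52% of all promoters), 3 consecutive units (0.603%) and the CArG box (1.63%) matched in no window of the 6 genes. The match began 104 bases before the start in Hspa1a and in Hspa1b, 117 and 97 bases before it in Hspb1, and at base 3 of the transcript in Hspb8. Bases 130 to 51 before the start are printed 5′ to 3′ on the strand of the gene, with GAANNTTC in capitals, from chr17:34972207-34972286 (minus strand), chr17:34959289-34959368 (minus strand) and chr5:135887789-135887868 (plus strand).
Hspa1a: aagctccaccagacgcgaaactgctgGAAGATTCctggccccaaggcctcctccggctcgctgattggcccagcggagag
Hspa1b: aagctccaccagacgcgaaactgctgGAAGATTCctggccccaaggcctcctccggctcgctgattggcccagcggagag
Hspb1: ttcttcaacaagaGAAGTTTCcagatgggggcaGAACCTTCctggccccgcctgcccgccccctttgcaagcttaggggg
The stretches of Hspa1a and Hspa1b differed at 0 of 80 bases, and the whole windows were 98.7% identical. A match describes the letters only, and binding was not measured.

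Dnajb1 (NCBI Gene 81489) encodes HSP40, the J-domain partner that drives the ATPase of HSP70. It was at 16.2, 16.7 and 15.3 FPKM in fl/fl cells, and at 12.0, 17.8 and 15.2 FPKM in SMC-/- cells. The groups overlapped, and replicate 1 of Smyd2 fl/fl lay between the other replicates, unlike that of Hspa1b. The log2 fold change was -0.11 (95% interval -0.50 to 0.29, limma adjusted p = 0.780), 0.04 (95% interval -0.23 to 0.31) in replicates 2 and 3 alone and 0.01 after rescaling to TPM (-0.08 relative to the median of all genes, and -0.09 before).

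Among the small heat shock genes, Hspb8 (NCBI Gene 80888), whose protein works with BAG3 in chaperone-assisted autophagy, was at 43.5, 47.6 and 45.3 FPKM in fl/fl cells. In SMC-/- cells it was at 80.1, 73.1 and 63.8 FPKM. All Smyd2 SMC-/- libraries lay above all Smyd2 fl/fl libraries, replicate 1 included. The means were 45.4 ± 2.02 and 72.3 ± 8.18 FPKM (SD, n = 3 each), and the log2 fold change was 0.65 (95% interval 0.35 to 0.96, limma adjusted p = 0.0580). With the replicate block the adjusted p was 0.0356, and it was 0.00944 in replicates 2 and 3 alone, where the log2 fold change was 0.55. Without the block it was called after rescaling to TPM (0.78, or 0.69 relative to the median of all genes, limma adjusted p = 0.0321) and after quantile normalization (0.71, adjusted p = 0.0427). With the chromosome medians removed the log2 fold change was 0.38 (limma adjusted p = 0.185), or adjusted p = 0.0942 with the replicate block.

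Hspb1 (NCBI Gene 15507) encodes HSP27, a small heat shock protein that binds actin filaments. It was at 67.4, 76.7 and 61.6 FPKM in fl/fl cells, and at 55.4, 127 and 125 FPKM in SMC-/- cells. Replicates 2 and 3 of Smyd2 SMC-/- were the highest libraries and its replicate 1 the lowest, so that the groups overlapped through that library. The log2 fold change was 0.48 (95% interval -0.30 to 1.27, limma adjusted p = 0.476) over all libraries and 0.87 (95% interval 0.57 to 1.16, adjusted p = 0.00277) in replicates 2 and 3 alone, and it was 0.88 (adjusted p = 0.0292) without Smyd2 SMC-/- replicate 1, 0.28 (0.763) without replicate 2 and 0.29 (0.805) without replicate 3 of that group. With the chromosome medians removed it was 0.21 (limma adjusted p = 0.832) over all libraries.

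Cryab (NCBI Gene 12955) encodes αB-crystallin, a chaperone of desmin and other filaments. It was at 785, 311 and 296 FPKM in fl/fl cells, and at 437, 419 and 394 FPKM in SMC-/- cells. Smyd2 fl/fl replicate 1 was the highest library and the other Smyd2 fl/fl libraries were the lowest. Over all libraries the log2 fold change was 0.00 (95% interval -0.89 to 0.89, limma adjusted p = 0.999), and in replicates 2 and 3 alone it was 0.42 (95% interval 0.15 to 0.69, adjusted p = 0.0319). Cryab shares 1030 bases of chromosome 9 with Hspb2 on the opposite strand in the GENCODE annotation, and the sources used here do not say whether strand was used in counting, so that part of either value may belong to the other gene.

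Unc45a (NCBI Gene 101869) encodes the general form of the myosin chaperone UNC45, and the striated-muscle form Unc45b was at 0.16 FPKM or less in every library. Unc45a was at 17.7, 10.1 and 10.1 FPKM in fl/fl cells, and at 16.4, 8.68 and 10.4 FPKM in SMC-/- cells. Replicate 1 was the highest library of each group, and the groups overlapped. The log2 fold change was -0.09 (95% interval -0.81 to 0.63, limma adjusted p = 0.908), -0.08 (95% interval -0.36 to 0.20) in replicates 2 and 3 alone and 0.02 after rescaling to TPM (-0.07 relative to the median of all genes, and -0.07 before). Of the myosin heavy chain genes, Myh9 and Myh10 were tested, with log2 fold changes of -0.46 and 0.26, and 0 were called, where 2.44% of all genes were. With the replicate block Myh9 was called (limma adjusted p = 0.0472), where 5.72% of all genes were called lower. It was not called with the chromosome medians removed (0.126 with the block). Myh11, the smooth muscle myosin, was at 0.22 FPKM or less.

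Summed over the 10 genes, the level was 4402, 3921 and 3697 FPKM in fl/fl cells, and 3053, 3392 and 3302 FPKM in SMC-/- cells. The groups did not overlap, and the log2 sum differed by -0.30 (two-sided exact permutation test, p = 0.1, its lower limit), or by -0.18 after rescaling to TPM, which raised the median of all genes by 0.11. Hspa8 and Hsp90ab1 made up most of the sum in every library. The share of Hsp90ab1 was 29.1%, 32.7% and 33.1% in fl/fl cells and 27.8%, 25.7% and 24.1% in SMC-/- cells, without overlap. The share of Hspb8 was 0.989%, 1.21% and 1.22% against 2.62%, 2.16% and 1.93%, also without overlap. That of Hsp90aa1 was 6.92%, 5.81% and 5.47% against 7.17%, 7.39% and 7.46%, again without overlap, while that of Hspa8 overlapped. The level of Hsp90aa1 itself overlapped between the groups (log2 fold change -0.02), and the sum that it is divided by was lower in SMC-/- cells. As a share of all FPKM of a library the 10 genes made up 1.06%, 0.868% and 0.876% in fl/fl cells and 0.780%, 0.847% and 0.850% in SMC-/- cells.

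The other genes of the chaperone system were read from lists by role, 98 genes in all with the 10 included, of which 97 were in the table and 91 were tested. Of the 91, limma called 1 lower and 2 higher, Dnajc3 and Hspa12a being the higher genes, where 2.44% of all genes tested were called in either direction. With 1 library left out the number called was between 0 and 6. With the replicate block 11 were called lower and 5 higher, where 5.72% and 4.72% of all genes were. With the chromosome medians removed Hspa12a alone was called, where 1.58% of all genes were in either direction. With the block added to that, Hspb6 was called lower and Dnajc1, Dnajc3, Hspa12a and Hspb2 higher, where 2.30% and 3.38% of all genes were. The median log2 fold change of the 91 genes was -0.15, against -0.02 over all genes tested, and 60 of them were below 0. The Smyd2 SMC-/- libraries lay entirely below the others for 20 of them and entirely above for 9, where 15.0% and 13.1% of all genes did. Over all genes the share below rose with level, from 11.2% under 10 FPKM to 16.9% at 10 to 100 FPKM, 29.2% at 100 to 500 FPKM and 51.8% above. Replicate 1 was the highest library of both groups for 47 of the 91, or 51.6%, against 35.8% of all genes. In replicates 2 and 3 alone 25 were called lower and 13 higher, where 17.2% and 11.9% of all genes were.

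Around HSP90, the median over its 21 co-chaperones tested was -0.20, and 18 of them were below 0. Over all genes the median was -0.04 at 10 to 100 FPKM and -0.17 at 100 to 500 FPKM. In replicates 2 and 3 alone 8 of the 21 co-chaperones were called lower, where 17.2% of all genes were. With the replicate block Stip1 (-0.82), which links HSP70 to HSP90, Ptges3 (-0.50), which encodes p23, and Fkbp5 (-0.97), a target of the glucocorticoid receptor and the largest fall of the list, were among the genes called. Stip1 lies on chromosome 19, whose 422 genes tested had a median of -0.42, and with the chromosome medians removed its log2 fold change was -0.40 (limma adjusted p = 0.369), and it was not called with the block. That of Ptges3 was then -0.13 and that of Fkbp5 -0.81, and neither was called with the block (adjusted p = 0.467 and 0.0707), nor after TPM with the block (0.0724 and 0.0519). The highest of the list was Fkbp8, at 0.13. Of the HSP90 genes, the mitochondrial Trap1 was at -0.26 and Hsp90b1 of the endoplasmic reticulum at 0.04, and neither was called over all libraries. In replicates 2 and 3 alone Trap1 was called lower (-0.38, limma adjusted p = 0.0340), and with the chromosome medians removed it was at -0.03 and Hsp90b1 at 0.41 (adjusted p = 0.921 and 0.266). Hsp90b1 was at 0.29 after quantile normalization.

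In the HSP70 list of 15 genes the median was -0.15, and Hspa12a, a distant relative of HSP70, was called at 1.58, 2.06 and 2.29 FPKM in fl/fl cells against 6.40, 12.2 and 9.82 FPKM in SMC-/- cells (log2 fold change 1.78, limma adjusted p = 0.0229), and it was at 2.20 with the chromosome medians removed (adjusted p = 0.0211). Of the 15, 4 were called lower in replicates 2 and 3 alone (Hspa1b, Hspa4l, Hspa12b and Hsph1) and 4 higher (Hspa12a, Hspa4, Hspa5 and Hyou1), where 17.2% and 11.9% of all genes were. Within replicate 1, Hspa4, Hspa5 and Hyou1 were lower in SMC-/- cells (log2 differences -0.29, -0.19 and -0.13) and Hspa12b higher (0.66). Hspa1b, Hspa4l, Hsph1 and Hspa12a went the same way there as in replicates 2 and 3. Hspa4l, a nucleotide exchange factor of HSP70, was at 60.1, 6.65 and 6.99 FPKM in fl/fl cells and at 29.1, 4.64 and 4.15 FPKM in SMC-/- cells. It was high in replicate 1 of both groups like Hspa1b, and it was called with the replicate block (log2 fold change -0.70, limma adjusted p = 0.0487), but with the chromosome medians removed it was at -0.76 and was not called with the block (adjusted p = 0.0666). Among the 11 HSP70 cofactors 0 were called with or without the block, where 10.4% and 2.44% of all genes were. The log2 fold changes of these cofactors lay between -0.46 for Bag3, the partner of HSPB8, and 0.31 for Sil1. In replicates 2 and 3 alone Bag3 was called lower (-0.33, limma adjusted p = 0.0455), and its groups did not overlap. The HSP40 list had a median of 0.00 over 20 genes tested, with Dnajc3 called higher (0.68, limma adjusted p = 0.0338, and 0.62 with the chromosome medians removed, adjusted p = 0.0794, or 0.0455 with the block), Dnajc1 called higher with the block (0.74, adjusted p = 0.0320) and Dnajc8 lowest (-0.50).

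The small heat shock list had the highest median of the lists, 0.57 over 6 genes tested, including Hspb1, Hspb8 and Cryab. Removal of the chromosome medians left it at 0.30, near the 0.27 of the endoplasmic reticulum list. Hspb2 was at 15.5, 10.2 and 8.36 FPKM in fl/fl cells and at 30.9, 24.1 and 22.2 FPKM in SMC-/- cells, without overlap (log2 fold change 1.14, limma adjusted p = 0.0660, or 0.0141 with the replicate block). Hspb7 was highest, at 1.28, with 0.39 FPKM or less in fl/fl cells. It was at 0.39, 4.39 and 3.05 FPKM in SMC-/- cells, so that its difference was in replicates 2 and 3. Its mean was 0.29 FPKM in fl/fl and 2.61 FPKM in SMC-/- cells. It therefore passed the filter of 0.5 FPKM only through the group where it was high, and it counts in the list median of 0.57. Hspb6, the small heat shock protein that is phosphorylated when smooth muscle relaxes, went the other way (-0.78, limma adjusted p = 0.392, or 0.0258 with the replicate block). Cryaa was at 0.05 FPKM or less, and Hspb3 was not in the table.

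The lowest median was that of the chaperonins, -0.36 over 10 genes, 9 of which were below 0, and with the chromosome medians removed it was -0.34, as was that of the genes inducible through HSF1. Of the 8 subunits of the CCT complex, which folds actin and tubulin, 5 had Smyd2 SMC-/- libraries that lay entirely below the others. Over all genes 15.0% did, with 16.9% at 10 to 100 FPKM and 29.2% at 100 to 500 FPKM. Without the block 0 of the 8 were called, where 2.44% of all genes were. Of the 8, 6 were called lower in replicates 2 and 3 alone, where 17.2% of all genes were. With the replicate block Cct2, Cct8 and Tcp1 were called (log2 fold changes -0.64, -0.62 and -0.55, limma adjusted p = 0.0292, 0.0314 and 0.0371). After removal of the chromosome medians they were at -0.27, -0.39 and -0.40, and none was called with the block (adjusted p = 0.168, 0.103 and 0.0877). After TPM with the block Tcp1 was not called (0.0526). Cct6a alone was above 0, at 0.03, and it turned to -0.24 when the chromosome medians were removed, with all 8 subunits then below 0. Relative to the median of all genes, the median of the subunits was -0.39 after rescaling to TPM and -0.35 after quantile normalization.

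**Figure D4:**
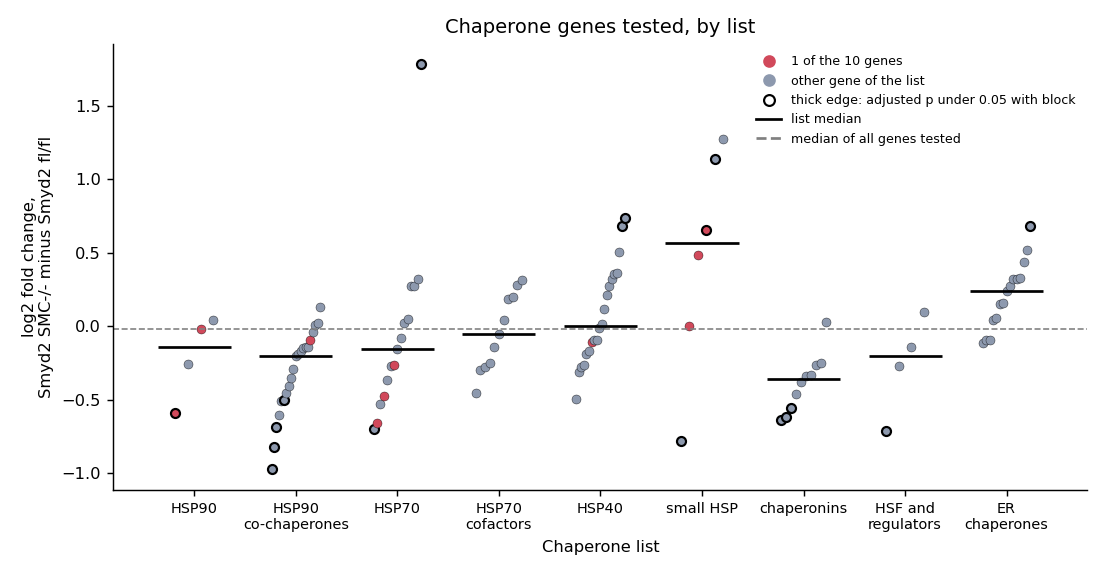
Log2 fold change, Smyd2 SMC-/- minus Smyd2 fl/fl, of every gene tested in 9 chaperone lists, with the 10 genes in red, genes with an adjusted p under 0.05 with the replicate block edged thickly, a line at each list median and a dashed line at the median of all genes tested. The median is highest for the small heat shock list (0.57) and lowest for the chaperonins (-0.36). The endoplasmic reticulum list includes Ddit3, which is not a chaperone gene.

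Of the heat shock factors and their regulators, 4 were tested, with a median of -0.20. Hsf1 was at 49.9, 30.8 and 32.5 FPKM in fl/fl cells and at 43.8, 25.4 and 25.3 FPKM in SMC-/- cells (log2 fold change -0.27, limma adjusted p = 0.662), highest in replicate 1 of both groups, and in replicates 2 and 3 alone it was called lower (-0.31, adjusted p = 0.0456). Hsf2 was called with the replicate block (-0.71, limma adjusted p = 0.0335), but with the chromosome medians removed it was at -0.34 (0.179 with the block), and Hsbp1 was highest, at 0.10. Over 21 genes known as inducible through HSF1 the median was -0.26, with 0 called and, with the block, 3 called lower, Hsp90ab1, Hspa4l and Stip1, where 5.72% of all genes were. In replicates 2 and 3 alone 7 were called lower and 2 higher, Cryab and Hspb1, where 17.2% and 11.9% of all genes were. After removal of the chromosome medians 0 were called with the block, where 5.68% of all genes were. The highest of the 21 was Serpinh1, at 0.52. The list of 15 genes of folding and stress in the endoplasmic reticulum had a median of 0.24, with Dnajc3 called higher. Ddit3, which encodes a transcription factor and not a chaperone, was the lowest of the 15, at -0.12. Of these, 6 were called higher in replicates 2 and 3 alone (Dnajb9, Dnajc3, Hspa5, Hyou1, Pdia3 and Pdia6), where 11.9% of all genes were. Within replicate 1, Dnajb9, Hspa5 and Hyou1 were lower in SMC-/- cells (log2 differences -0.12, -0.19 and -0.13) and Dnajc3 higher (0.62). With the replicate block Dnajc3 alone was called higher, where 4.72% of all genes were. After TPM with the block 4 of the 15 were called higher, where 8.07% of all genes were.

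Among the genes of the chaperone lists, the pattern most like that of 9 of the 10 genes over the 6 samples, by Pearson's r on log2(FPKM + 1), was that of Hspa4l for Hspa1b (r = 0.999), Bag6 for Hspa1a (0.974) and Cryab for Hsp90aa1 (0.887). It was Hspa2 for Hspa8 (0.987), Hspa2 for Dnajb1 (0.831), Ppid for Unc45a (0.975), Dnajb9 for Hspb1 (0.972), Dnajc3 for Hspb8 (0.917) and Cct6a for Cryab (0.924). The 6 samples share the division between replicate 1 and the others, and each r is the highest of 90.

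**Figure D5:**
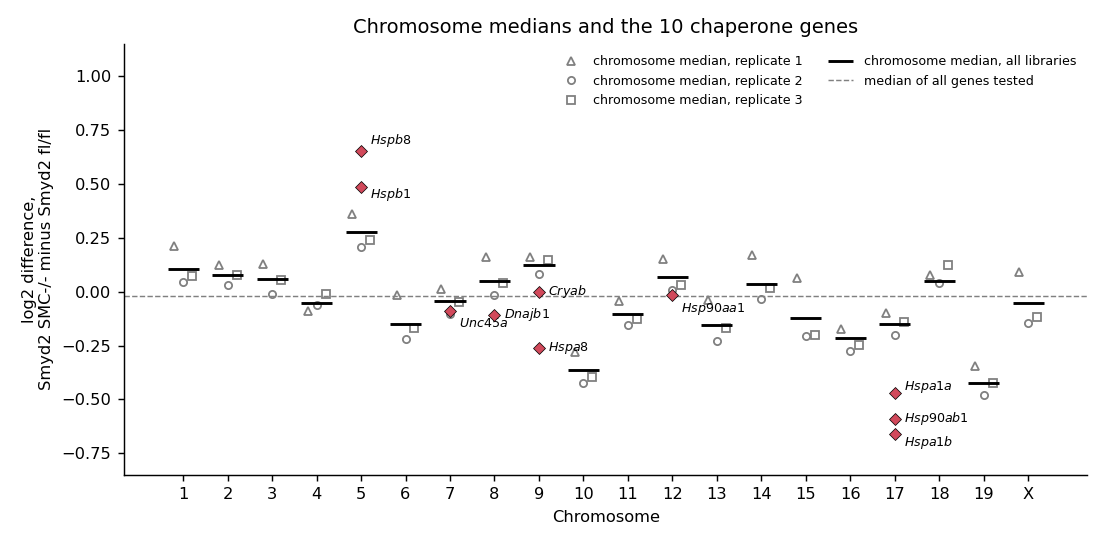
Median log2 difference, Smyd2 SMC-/- minus Smyd2 fl/fl, of the genes tested on each chromosome, over all libraries (bars) and within each replicate number (open symbols), with the 10 chaperone genes as red diamonds and a dashed line at the median of all genes. Hspb1 and Hspb8 lie above the median of chromosome 5 (0.28), and Hsp90ab1, Hspa1a and Hspa1b below that of chromosome 17 (-0.15).

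The cell type in the labels was checked against marker genes. Of 9 smooth muscle markers 5 were tested. Acta2 was abundant, at 761, 682 and 683 FPKM in fl/fl cells and at 201, 268 and 262 FPKM in SMC-/- cells (log2 fold change -1.55, limma adjusted p = 0.00803), and Lmod1 was highest, at 0.24. The median of the 5 was -0.91, and 4 of them were below 0. In replicates 2 and 3 alone their median was -0.07, with 3 below 0 and 2 above. The other 4, Myh11, Myocd, Des and Synpo2, were at 0.48 FPKM or less in every library. The summed level of the list, mostly Acta2, was 922, 822 and 814 FPKM in fl/fl cells and 263, 429 and 377 FPKM in SMC-/- cells.

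Markers of other cells also moved with the groups or with replicate 1. All 8 adventitial fibroblast markers were tested and 2 were called lower, Dpt (log2 fold change -5.28, limma adjusted p = 0.00417) and Serpinf1 (-3.0, adjusted p = 0.00246), where 1.21% of all genes were. The replicate block added Cd34 and Ly6a, where 5.72% of all genes were called lower, while Lum was highest, at 1.82. The summed level of the 8, with Dcn the most abundant of them on average, was 371, 1020.5 and 877 FPKM in fl/fl cells. In SMC-/- cells it was 93.2, 579 and 526 FPKM, and it was lowest in replicate 1 of each group. Of the 8, 6 were below 0 and 2 above. Dcn was called higher after TPM with the replicate block, where 8.07% of all genes were, and with the chromosome medians removed and the block, where 3.38% were. Of 5 adipocyte markers, Adipoq, Plin1 and Cidec were at 0.09 FPKM or less, and Fabp4 was at 119 FPKM in Smyd2 SMC-/- replicate 1 and at 6.19 FPKM or less elsewhere, while the log2 fold change of Pparg was -1.06. Of 8 endothelial markers Cdh5 was at 0.01 FPKM or less, and the summed level, mostly Eng, was 171, 86.2 and 90.0 against 96.0, 75.4 and 74.4 FPKM, highest in replicate 1, with Kdr at a log2 fold change of 1.16. Of 7 macrophage markers Ptprc, Adgre1 and Itgam were at 0.02 FPKM or less, and the sum, mostly Cd14, was 42.6, 30 and 26.7 against 40.9, 18.3 and 22.8 FPKM, with Lyz2 lowest (-0.64) and Csf1r highest (0.65). Of 8 striated muscle markers 4 were not in the table, and Tnnt2 was the only gene tested (29.1, 8.17 and 7.51 against 3.44, 4.13 and 4.43 FPKM). In replicates 2 and 3 alone Lmod1, Lum, Kdr and Csf1r were called higher, where 11.9% of all genes were. Acta2, Pparg, Lyz2, Tnnt2 and 6 of the 8 fibroblast markers (Cd34, Dpt, Ly6a, Pdgfra, Pi16 and Serpinf1) were called lower there, where 17.2% of all genes were. The part of these differences in the levels of the chaperone genes was not tested.

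Genes of the immediate early response, which respond to serum and handling, were set beside the inducible chaperones. Of the 9 tested 0 were called, where 2.44% of all genes were. With the replicate block Dusp1 was called lower and Egr1 higher (limma adjusted p = 0.0306 and 0.0168), where 5.72% and 4.72% of all genes were. Of these 2, Egr1 alone was called with the block once the chromosome medians were removed. Dusp1 was at 168, 58.1 and 55.6 FPKM in fl/fl cells and at 117, 38.2 and 35.6 FPKM in SMC-/- cells, high in replicate 1 of both groups like Hspa1b, but this held for only 2 of the 9, or 22.2%, against 35.8% of all genes. Fosl1 was at 54.9, 6.18 and 6.67 FPKM in fl/fl cells but at 4.25, 5.48 and 3.08 FPKM in SMC-/- cells, high in replicate 1 of Smyd2 fl/fl alone. Whether replicate 1 differed in culture or handling was not tested. Of the 5 SMYD genes 0 were called, where 2.44% of all genes were. With the block Smyd2 and Smyd5 were called lower, where 5.72% of all genes were, with Smyd1 highest, at 0.27. Once the chromosome medians were removed Smyd5 was not called with the block (limma adjusted p = 0.115), and in replicates 2 and 3 alone Smyd1 was called higher (0.56, adjusted p = 0.0355).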

How the data were processed

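The authors deposited gene levels in FPKM for 6 libraries, made per their methods with SOAPnuke for read filtering, HISAT and Bowtie2 for alignment and RSEM for counting; the versions and the genome build are not given in the sources used here. The methods name TRIzol and the BGISEQ-500 platform, while the labels name a Promega kit and a TruSeq library, and the kit used stays uncertain. Members were the rows whose symbol equals a listed name, and the members and lists were chosen with earlier results of these data known. Genes that averaged 0.5 FPKM or more were fitted on log2(FPKM + 1) with limma 3.58.1 in R 4.3.3 (empirical Bayes with trend and robust settings), with p adjusted over all genes tested by the Benjamini-Hochberg method. Single values were compared with a two-sided exact permutation test. Python 3.11.15 with numpy 2.4.6, pandas 2.3.3, scipy 1.17.1 and matplotlib 3.10.9 was used for the rest, and the fit was tested on simulated data.

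Same-numbered samples of the groups correlated after removal of the group means (r = 0.615, 0.460 and 0.527 for replicates 1, 2 and 3), which rests on the data and not on the labels, so the replicate number was also used as a block. Replicates 2 and 3 correlated across numbers as well (0.461 and 0.439). Apart from the 10 members, genes named from the lists were those called with or without the block and the highest and lowest fold change of each list; Hsf1, Trap1, marker genes near 0, the most alike genes and some genes called only in replicates 2 and 3 were also named, the last 3 kinds after their values were seen. Depth was estimated from the rounding of low FPKM values as about 17100000, 18550000 and 18450000 fragments in fl/fl replicates 1, 2 and 3 and 16150000, 17700000 and 17650000 in SMC-/-, an approximation that puts Hspa1a, the lowest member, at 278 fragments or more. Alternatives were another pseudocount, other filters, plain limma, TPM, quantile normalization, blocks, replicates 2 and 3 alone and leaving out each library. Scaling with the block, removal of chromosome medians and the sum of Hspa1a and Hspa1b were added after seeing the data. Promoters came from RefSeq and gene spans from GENCODE M21. A result on 1 gene of the lists is not reported here.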

Additional observations from a re-analysis of the deposited data

How the results depend on the processing

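Of the 10 genes 0 were called in the limma fit without a block. It came to 2 once the replicate number was a block, 3 with a block for replicate 1 against the others (Hspa1b added, adjusted p = 0.0264), 5 in replicates 2 and 3 alone, 1 after TPM, 1 after quantile normalization, 2 after TPM with the replicate block, 1 after quantile normalization with it, and 0 to 1 with each library left out. The number was 0 with the chromosome medians removed, without and with the replicate block, where 1.58% and 5.68% of all genes were called. Of all genes 2.44% were called without a block, 10.4% with the replicate block, 20.3% with the block for replicate 1, 29.0% in replicates 2 and 3 alone, 2.75% after TPM, 2.72% after quantile normalization, 11.9% and 9.77% after these with the replicate block, and 0.271% to 5.46% with a library left out. In the chaperone lists 3 of 91 were called, against 16 with the replicate block and 38 in replicates 2 and 3 alone. The number was 5 after quantile normalization and 13 after TPM or quantile normalization with the block. With the chromosome medians removed it was 1 (1.10%), and 5 (5.49%) with the block added, where 1.58% and 5.68% of all genes were called. With each library left out it was 0 to 6. Hsp90ab1 stayed between -0.62 and -0.29 and Hspb8 between 0.38 and 0.78 in all 19 alternatives, with an adjusted p under 0.05 in 4 and in 7. TPM raised the median of all genes by 0.11, and relative to that median it turned none of the members. Hsp90aa1 (-0.02) was above 0 in replicates 2 and 3 alone (0.21), after TPM (0.11, or 0.01 relative to the median) and after quantile normalization (0.0883), and ran from -0.14 to 0.15 with each library left out, 0.04 without Smyd2 SMC-/- replicate 1. Hspa8 turned after quantile normalization (0.11). Cryab was above 0 in replicates 2 and 3 alone (0.42), after TPM (0.12, or 0.03 relative to the median) and after quantile normalization (0.19), and ran from -0.25 to 0.46 with each library left out, 0.04 without Smyd2 SMC-/- replicate 3. Dnajb1 turned in replicates 2 and 3 alone (0.0414), was at 0.0108 after TPM (-0.08 relative to the median), and ran from -0.23 to 0.0343. Unc45a was at 0.0250 after TPM (-0.07 relative to the median) and ran from -0.33 to 0.16, with 0.09 without Smyd2 SMC-/- replicate 2. With each library left out, Hspb1 ran from 0.28 to 0.88, Hspa1a from -0.65 to -0.18, Hspa1b from -1.36 to 0.24, its sum with Hspa1a from -1.28 to 0.19, and the log2 ratio of that sum to Hspa8 from -1.16 to 0.51, with 0.06 without Smyd2 SMC-/- replicate 3. Scaled values above were the same with the replicate block, and in the fit of unscaled values the replicate block changed no call among the members but those of Hsp90ab1 and Hspb8. After TPM it also brought Hsp90ab1 to a call (adjusted p 0.0658 to 0.0431). The log2 sum of the members moved from -0.30 to -0.18 after TPM. With 3 samples in each group, replicate 1 apart in both and shifts along whole chromosomes, the cause of these differences was not tested.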
